A study of Homo sapiens with 9 samples.

Results

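Solute carrier (SLC) genes were examined in the gene list that underlies the nascent transcription and H2BK120Ub profiles of RPE1-hTERT cells. An SLC gene was any listed gene whose Ensembl identifier belongs to a protein-coding gene with a symbol of SLC followed by a digit, or SLCO. This gave 129 of the 9588 listed genes, out of 386 such genes in the GENCODE v44 annotation. SLC genes thus made it into the list at 33.4%, beside 30.1% for all 20046 annotated protein-coding genes. No symbol of an adaptor or regulator of a transporter was among them.

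RPE1-hTERT is an established human retinal pigment epithelial line, immortalised with telomerase. The ChIP-seq libraries of the series come from cells of the genotype RPE1 iCas9 p53/puro-dKO, which all groups share. They are 2 libraries of mock cells, 2 of cells given 9 J/m2 of UV-C 3 h earlier, 4 of cells given the same dose 24 h earlier, and 1 of mock input chromatin. The table analysed here has no value of any of these libraries, so H2BK120Ub and the response to UV were not analysed here. Instead it gives each gene a length and 1 BrU density, the authors' value for bromouridine-labelled nascent RNA over the first 3 kb, from WT cells without irradiation, with no replicates and no error. The stated window has the same length in every gene, so densities can be set side by side, but with limits. Some windows overlap another annotated gene, and the list holds genes shorter than 3 kb, though no SLC gene is.

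SLC proteins are membrane transporters that move nutrients, ions, metabolites and drugs across the plasma membrane or the membranes of organelles, by facilitated diffusion or coupled to the gradient of another solute. Families are numbered by sequence relation and often share a class of substrates. In the retina, the pigment epithelium passes glucose, lactate, ions and amino acids between the blood and the photoreceptors, and many of the carriers for this belong to the SLC families. Other SLC genes are known mainly from the kidney, liver, gut or nervous system.

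Markers of the cell type were mixed in this table. Of 10 retinal pigment epithelium markers looked up, 5 were listed. OTX2, a transcription factor of eye development, had a density of 217 and MITF, a regulator of pigment genes, had 13.3. The visual cycle genes RLBP1, LRAT and RPE65 were at 1.26, 0.997 and 0.26. Of the markers of other cell types, ALB and COL1A2 were listed at 0, CD3E was at 0.173, COL1A1 at 25.8 and SNAP25 at 18.4.

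A BrU density above 0 was found at most listed SLC genes, but at moderate levels. In all, 79 of the 129 (61.2%) had a density above 0, 10 of them below 1, and 50 were listed at 0. Above 0 were 58.7% of all listed genes with a value and 70.0% of the protein-coding ones. The study ranked genes by this density and kept 3000, and 49 SLC genes (38.0%) were among them, where 31.6% of all listed genes and 45.7% of listed protein-coding genes were. The share of SLC genes therefore lay between the shares of both backgrounds. The median density of the 79 SLC genes above 0 was 22.4, beside 20.5 over all listed genes above 0 and 36.5 over the protein-coding ones. Among the 3000 genes, SLC genes had a median of 43.3 (quartiles 26.8 and 84.2) and protein-coding genes one of 66.4 (quartiles 37.8 and 115). These are descriptions of 1 value per gene, and no test was run on them.

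None of the SLC genes ranked in the first 250 genes of the list, which hold 2.63% of all listed genes and 3.97% of the protein-coding ones. Of the others, 7 ranked from 251 to 500, 5 from 501 to 1000, 12 from 1001 to 2000 and 25 from 2001 to 3000. Up to rank 500 the share of SLC genes was 5.43%, beside 5.26% of all listed and 7.97% of protein-coding genes, and up to rank 1000 it was 9.30%, beside 10.5% and 16.0%. A density of at least 100 was reached by 11 SLC genes (8.53%) and by 13.9% of the other listed protein-coding genes. At 200 or more there was 1 SLC gene (0.775%) beside 4.46% of the others, and at 300 or more there was none, beside 2.12%.

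All densities above 0 in the list were whole multiples of 0.0433, within 0.01 of a step. What a step stands for is not given in the sources used here. If 1 step is 1 read, the value of SLC4A7 rests on 4632 reads, a gene at rank 3000 on 347, and a gene at 0 may have a density of up to 0.13, the limit that 3 reads set (0.160 by the upper end of the exact 95% interval, which is two-sided). With that reading, 4 SLC genes rested on 1 to 3 reads. Intervals given below cover counting error only and hold under this reading.

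The 10 SLC genes with the highest densities belonged to 10 different families. SLC4A7, a sodium bicarbonate cotransporter of the plasma membrane, was highest at 201 and ranked 277 in the list. It lies on the minus strand of chromosome 3 from 27372723 to 27484384 (GRCh38) and has 26 exons in its canonical transcript. SLC35B3, which carries the sulfate donor PAPS into the Golgi, followed at 199, and SLC2A3, the glucose transporter GLUT3, at 197. The counting intervals of these 3 genes overlapped and ran from 195 to 207, from 194 to 205 and from 191 to 202.

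The next genes carry metals, amino acids and cofactors. SLC25A37, mitoferrin-1, which brings iron into mitochondria for heme synthesis, had 185. SLC30A1, the zinc exporter ZnT1 of the plasma membrane, had 177, from a gene of 2 exons and 7594 bp at chr1:211571568-211579161, minus strand. SLC38A6, of the sodium-coupled amino acid transporter family, had 168 and SLC33A1, the acetyl-CoA transporter of the endoplasmic reticulum, had 166. After a gap, SLC7A1, the cationic amino acid transporter CAT1, stood at 126, SLC66A1, which exports cationic amino acids from lysosomes, at 121 and SLC39A14, the zinc and iron importer ZIP14, at 119. SLC25A51, the mitochondrial NAD carrier, was just below at 118.

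Some windows hold a second annotated gene. The first 3 kb of SLC35B3 overlapped a gene on the opposite strand, and those of SLC38A6, SLC33A1 and SLC25A51 overlapped 1 on the same strand that GENCODE lists without a name. In all, the first 3 kb of 17 of the 129 SLC genes overlapped another annotated gene, 7 of them on the same strand, and their part in the density was not tested. The median window held 378 bases of exon of the canonical transcript, so that most of it was intron. The listed TSS was that of the canonical transcript for each of the 129 genes.

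The limit at rank 3000 fell among genes of like density. Just inside were SLC44A2 at 16.8 and SLC1A1, the glutamate transporter EAAT3, at 15.5. Just outside were SLC27A4, the fatty acid transporter FATP4, at 14.9, SLC40A1, the iron exporter ferroportin, at 14.7 and SLC18B1, a vesicular polyamine transporter, at 14.4. The counting interval of SLC1A1 ran from 13.9 to 17.2 and that of SLC27A4 from 13.4 to 16.6, so these neighbours did not differ beyond counting error.

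By family number, 39 of the 52 annotated families had a listed member, 34 had a member above 0 and 22 had a member among the 3000. In 5 families each listed member was at 0, and in 6 each was among the 3000, but 4 of those 6 had a single listed member. Among the others was SLC44, with the choline transporter SLC44A1 at 35.6 and SLC44A2 at 16.8. Families with 5 or more listed members numbered 8 and held 66 of the 129 genes.

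**Figure D1:**
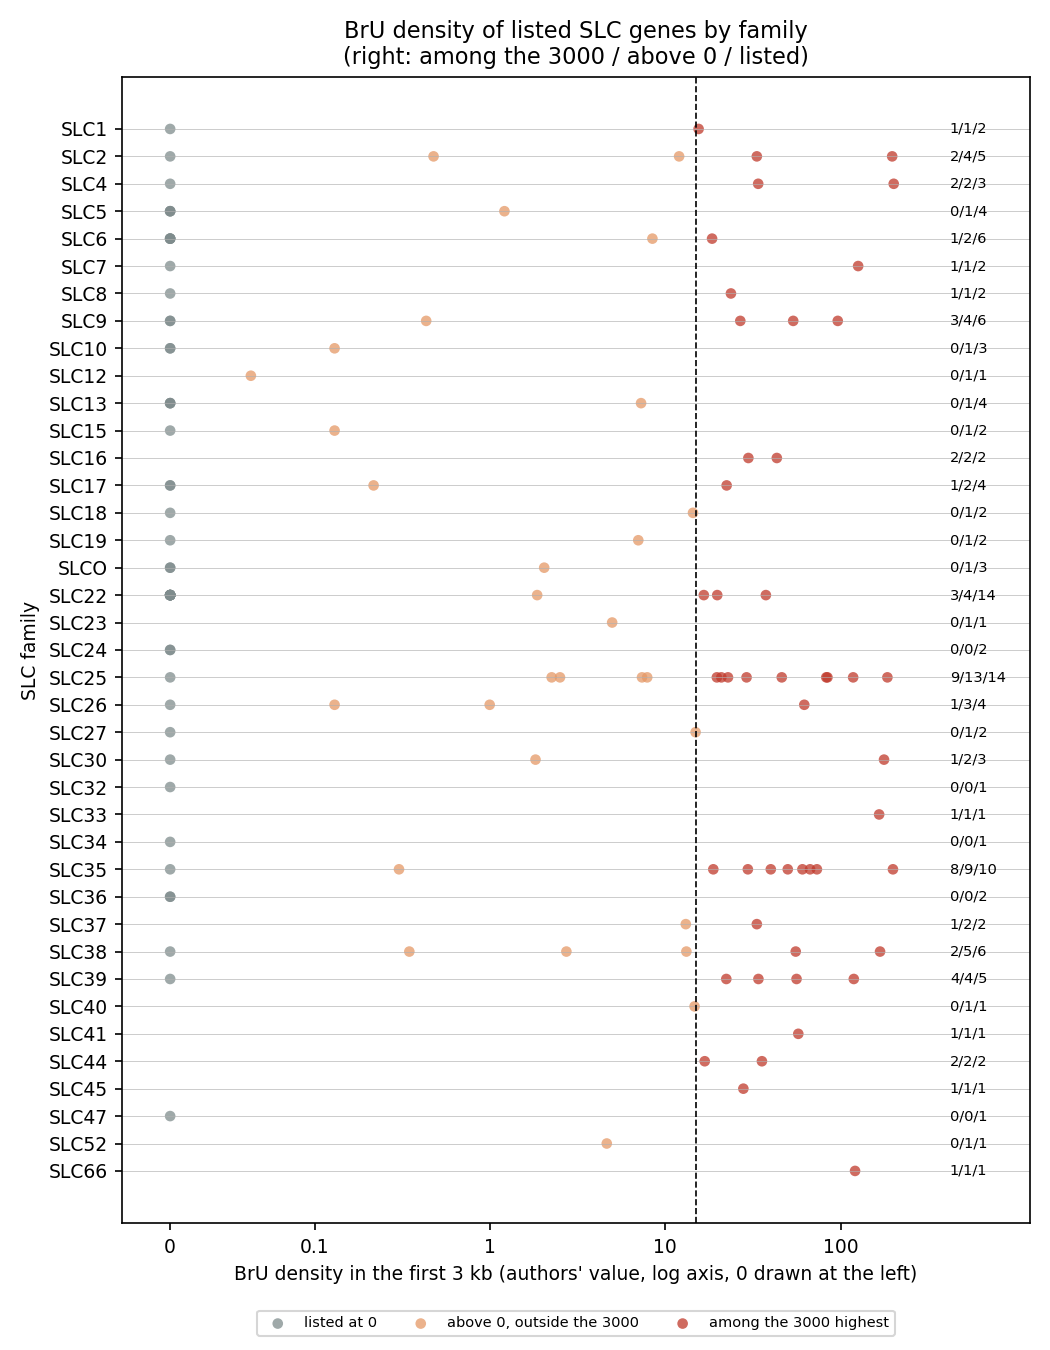
BrU density of each listed SLC gene (x axis, log axis, with 0 drawn at the left) by family (y axis), 1 point per gene, with the density at rank 3000 as a dashed line and the counts among the 3000, above 0 and listed at the right. The points of SLC25 and SLC35 lie mostly right of the dashed line and those of SLC22 mostly at 0.

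SLC25, the mitochondrial carrier family, had 13 of 14 listed genes above 0 (92.9%) and 9 among the 3000 (64.3%). These shares were 58.7% and 31.6% for all listed genes with a value, and 70.0% and 45.7% for the protein-coding ones. Its members there ran from SLC25A37 at 185 to SLC25A33, a pyrimidine nucleotide carrier, at 19.7. SLC25A46, an outer membrane protein with a role in mitochondrial shape, had 84.2 and SLC25A4, the ADP/ATP carrier ANT1, had 82.9. SLC25A38, which imports glycine for heme synthesis, had 46.2, SLC25A6, the ADP/ATP carrier ANT3, had 29.1, SLC25A14 had 22.8 and the calcium-regulated SLC25A23 had 20.9. Outside the 3000, SLC25A20, the carnitine/acylcarnitine carrier, had 7.89, SLC25A42 had 7.37, SLC25A41 had 2.51 and SLC25A31, the ADP/ATP carrier of the germ line, had 2.25. SLC25A48 was listed at 0. Lengths of SLC25 genes ran from 5962 to 53975 bp, and 1 of the 14 reached 50 kb. Their median was 29795 bp, beside 33404 bp over the SLC genes and 23033 bp over listed protein-coding genes.

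SLC35, known for members that carry nucleotide sugars into the Golgi and the endoplasmic reticulum, had 9 of 10 listed genes above 0 and 8 among the 3000. For listed protein-coding genes the shares were 70.0% and 45.7%. Below SLC35B3, the members among the 3000 were SLC35D1, a carrier of UDP-glucuronic acid, at 73.3, SLC35F6 at 67.0, SLC35B4, a carrier of UDP-xylose and UDP-N-acetylglucosamine, at 60.6, SLC35G1 at 50.0, SLC35E4 at 40.0, SLC35D2 at 29.6 and SLC35F2 at 18.8. The window of SLC35F6 overlapped CENPA on the same strand. SLC35D3 had 0.303 and SLC35F1 was at 0. These are also the shortest and the longest SLC genes of the list, at 3360 and 410408 bp.

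The zinc importer family SLC39 had 4 of 5 listed genes among the 3000, beside 45.7% of listed protein-coding genes. SLC39A14 at 119 was followed by SLC39A13 (ZIP13, of the Golgi) at 56.1, SLC39A8 (ZIP8) at 34.0 and SLC39A3 (ZIP3) at 22.3, while SLC39A4 (ZIP4, the intestinal zinc importer) was at 0. The windows of SLC39A13 and SLC39A3 overlapped another annotated gene. In the zinc exporter family SLC30, SLC30A1 at 177 stood beside SLC30A3, the exporter of synaptic vesicles, at 1.82 and SLC30A10, a manganese exporter, at 0.

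SLC22, the organic cation and anion transporters of liver and kidney, had the largest share at 0 of the 8 families with 5 or more listed members. It also had the largest share of its annotated genes in the list among the 8 families, 14 of 22 (63.6%). Of the 14, 10 (71.4%) were at 0, beside 41.3% of all listed genes with a value and 30.0% of the protein-coding ones. SLC22A5, the carnitine transporter OCTN2, was highest at 37.5, with a non-coding gene on the opposite strand in its window. SLC22A13, an organic anion transporter of the kidney, had 19.8, and SLC22A3 had 1.86. SLC22A6 and SLC22A8, the renal anion transporters OAT1 and OAT3, and SLC22A12, the urate transporter URAT1, were at 0. All 8 SLC22 genes listed on chromosome 11 were at 0. Each of them lies less than 200 kb from another of the 8, so these are not 8 separate observations.

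The other large families held members on both sides of the limit. In SLC9, the sodium/proton exchangers, SLC9A8 had 96.4 and SLC9A7, of the trans-Golgi, had 26.8, while SLC9C1 had 0.433 and SLC9A2 and SLC9A4 were at 0. SLC38, the sodium-coupled neutral amino acid transporters, had SLC38A6 at 168, the lysosomal glutamine carrier SLC38A7 at 55.5, the lysosomal arginine sensor SLC38A9 at 13.2, SLC38A3 at 2.73, SLC38A5 at 0.347 and SLC38A4 at 0. In SLC2, the facilitative sugar transporters, SLC2A3 had 197, SLC2A10 (GLUT10) had 33.3, SLC2A8 (GLUT8) had 12.0, SLC2A5, the fructose transporter GLUT5, had 0.477 and SLC2A7 was at 0. SLC6, the sodium- and chloride-coupled neurotransmitter transporters, had SLC6A15, a neutral amino acid transporter, at 18.5 and SLC6A8, the creatine transporter, at 8.45, while the other 4, among them the glycine transporter SLC6A5 and the GABA transporter SLC6A11, were at 0.

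Within one family the density could thus run from 0 to well over 100. In SLC7, the cationic and light chain amino acid transporters, 2 of 14 annotated genes were listed, and no light chain gene was among them. SLC7A1 was at 126 and SLC7A3, the related CAT3, at 0. SLC3A2, the heavy chain partner of several SLC7 proteins, was not analysed here.

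Substrate groups were set by family number, so a member can differ from its group's name. The nucleotide sugar group is SLC35, with the PAPS carrier SLC35B3 in it, the iron carrier SLC25A37 counts as a mitochondrial carrier, and the choline transporter SLC5A7 counts with the sugars. Of the groups with at least 5 listed genes, the SLC35 group had the largest share among the 3000 (8 of 10). Substrates of SLC35B3, SLC35D1 and SLC35B4 are given above, and what the rest of these 8 carry was not looked up. The mitochondrial carriers (9 of 14) and the metal group (6 of 10) came next. Of all listed genes with a value 31.6% were among the 3000, and of the protein-coding ones 45.7%. The metal group includes SLC41A1, a magnesium transporter, at 57.4 and SLC40A1 at 14.7. Of 14 amino acid and peptide carriers, 4 were among the 3000 and 6 were at 0. Sugar carriers had 4 of 12, and each of the 4 listed SLC5 genes, the sodium-coupled family with the intestinal glucose transporter SLC5A1, was outside. SLC5A11 had 1.21 and the other 3 were at 0. Sodium, proton and calcium exchangers had 4 of 10, among them SLC8B1, the mitochondrial sodium/calcium exchanger, at 23.7.

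Organic ion and drug carriers had 3 of 18 among the 3000 (16.7%) and 13 at 0 (72.2%). For listed protein-coding genes the shares were 45.7% and 30.0%, and for all listed genes 31.6% and 41.3%. Of the 3 SLCO genes SLCO1C1 had 2.04 while SLCO2A1, a prostaglandin transporter, and SLCO4C1 were at 0. Neurotransmitter and amine carriers had 2 of 13, SLC17A5, the lysosomal sialic acid exporter sialin, at 22.4 and SLC6A15. The vesicular GABA transporter SLC32A1 was at 0. None of the 5 bile acid and fatty acid carriers was among the 3000. The bile acid transporters SLC10A1 of liver and SLC10A2 of gut were at 0, and SLC27A4 was highest at 14.9. The single listed phosphate carrier, SLC34A2, was at 0.

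**Figure D2:**
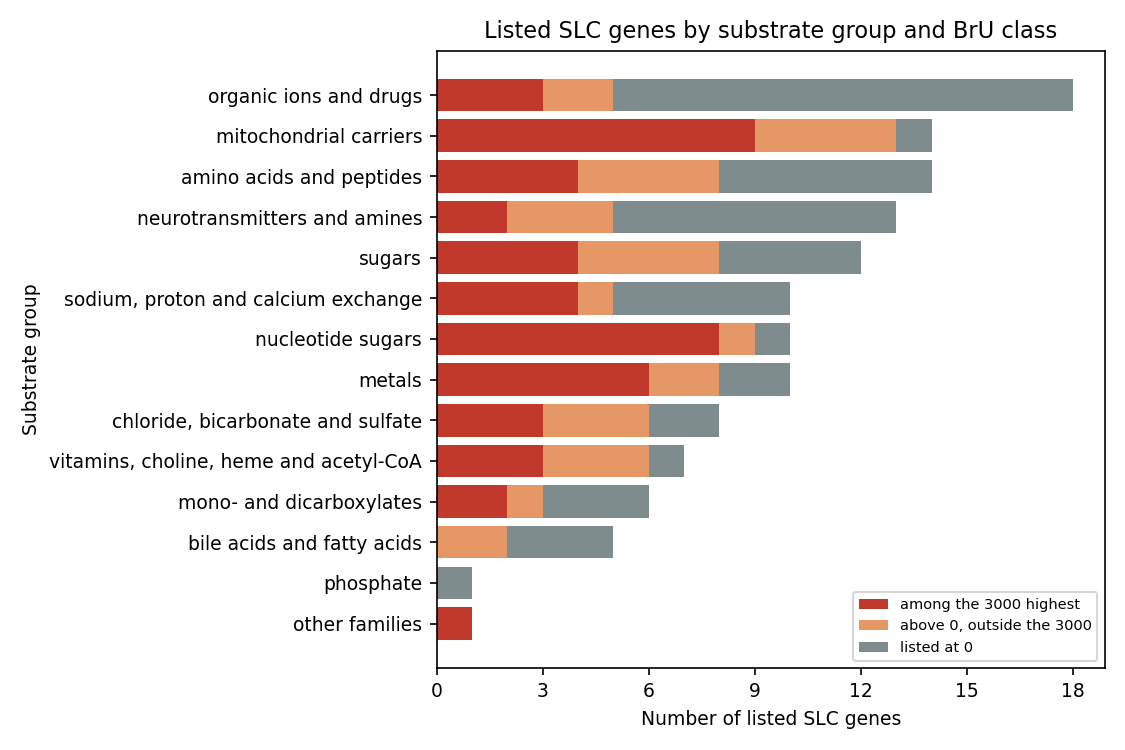
Number of listed SLC genes (x axis) in each substrate group, set by family number (y axis), split into genes among the 3000 highest, genes above 0 outside them and genes listed at 0. Of the groups with at least 5 listed genes, the nucleotide sugar group, which is family SLC35, had the largest share among the 3000 (8 of 10). The organic ion and drug group had the largest share at 0 (13 of 18).

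The remaining groups were mixed. Among chloride, bicarbonate and sulfate carriers, SLC4A7, the sodium bicarbonate cotransporter SLC4A4 (NBCe1) at 33.9 and the sulfate transporter SLC26A2 at 62.1 were among the 3000, while SLC4A1, the anion exchanger of red cells, was at 0 and SLC12A1, the renal sodium-potassium-chloride cotransporter NKCC2, was at 0.0433, the smallest value above 0. Of 6 mono- and dicarboxylate carriers, 2 were among the 3000, with SLC16A7 (MCT2, a monocarboxylate transporter) highest at 43.3, while SLC13A3 had 7.28 and SLC13A1, SLC13A2 and SLC13A5 were at 0. Among carriers of vitamins, choline and acetyl-CoA, SLC33A1 and both SLC44 genes were among the 3000. The folate transporter SLC19A1 had 7.02, SLC23A3 had 4.98, the riboflavin transporter SLC52A3 had 4.64 and the thiamine transporter SLC19A3 was at 0.

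Transporters outside the SLC symbols gave the following counts. Of 16 listed ABC transporters, which are driven by ATP, 12 were above 0 and 3 (18.8%) were among the 3000, led by ABCC1 at 117. Of 8 P-type ATPases, 5 were above 0 and 3 (37.5%) were among the 3000, led by the calcium pump ATP2A2 at 205. Of 17 carriers that have an SLC number but another symbol, 12 were above 0 and 8 (47.1%) were among the 3000, with NIPAL3 at 58.9 and SFXN1, the mitochondrial serine carrier, at 54.7 on top. With so few genes in each class, these shares are given beside the 38.0% of SLC genes without a comparison.

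Listed SLC genes had a median length of 33404 bp, beside 20948 bp over all listed genes and 23033 bp over the protein-coding ones. Length decides which profiles of the study a gene can enter, since these used genes of at least 50 or 100 kb among the 3000. SLC genes among the 3000 were shorter than the others, with a median of 27599 bp against 34398 bp. For all listed protein-coding genes the order was the other way, at 29010.5 bp among the 3000 and 17781 bp outside. Of the SLC genes under 10 kb, 7 of 18 (38.9%) were among the 3000, and 24 of 64 (37.5%) of those from 10 to 50 kb, 12 of 34 (35.3%) of those from 50 to 100 kb and 6 of 13 (46.2%) of those of at least 100 kb. For listed protein-coding genes these shares were 30.5%, 48.3%, 54.4% and 55.2%. Across the 129 SLC genes, Spearman's rho between length and density was -0.08, a description over genes that share the same libraries.

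The 50 kb profiles could draw on 18 of the 129 SLC genes, where 9.67% of all listed genes and 14.3% of the protein-coding ones qualified, and the 100 kb profiles on 6, where 4.10% and 6.03% did. The longest was SLC4A4 at chr4:71187259-71572083, plus strand, 384825 bp, with a density of 33.9. Others were SLC16A7 with 193813 bp and a density of 43.3, SLC9A7 with 159868 bp and 26.8, SLC44A1 with 152696 bp and 35.6, and SLC4A7 with 111662 bp and 201. SLC4A7 was the highest of the 129 and the other 4 named here ranked from 25 to 37 among SLC genes. SLC9A7 lay 754 bp from another listed gene, the one SLC gene closer than 2 kb.

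**Figure D3:**
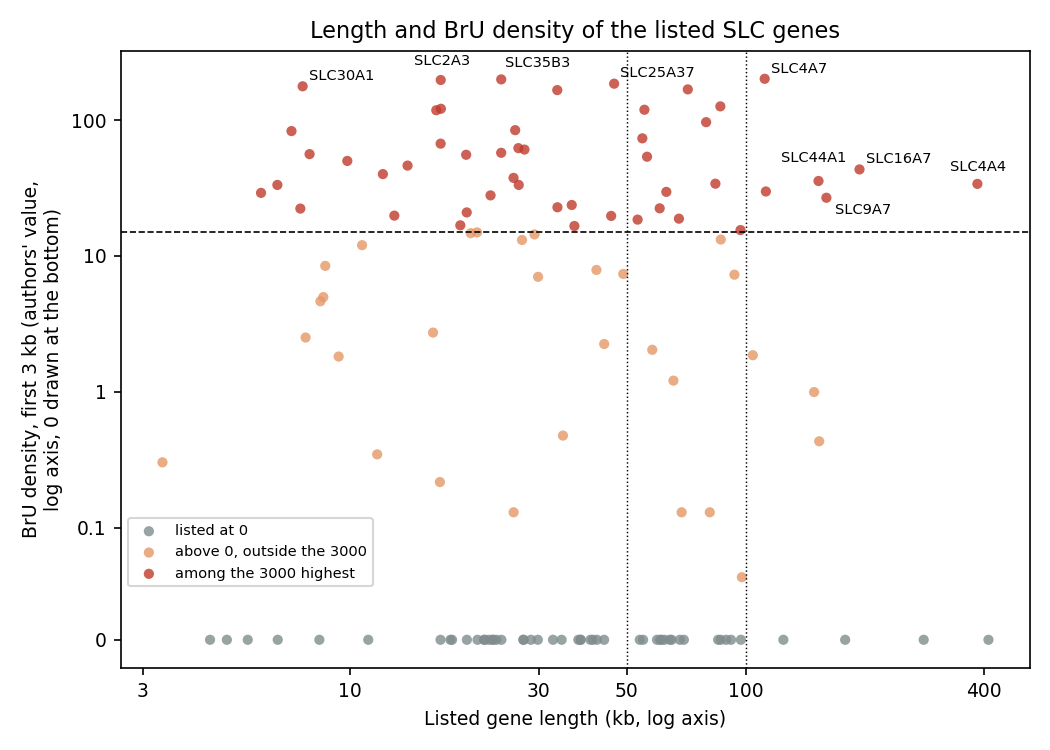
Listed length (x axis, kb, log axis) and BrU density (y axis, log axis, 0 drawn at the bottom) of the 129 SLC genes, with dotted lines at 50 and 100 kb and a dashed line at the density of rank 3000. Red points right of the second dotted line are the 6 genes of at least 100 kb among the 3000, and grey points at 0 span nearly the whole range of lengths.

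Of the 13 SLC genes of at least 100 kb, 4 were at 0: SLC35F1, the exchangers SLC24A2 and SLC24A4, and SLC6A11. The other 3 had densities of 1.86 (SLC22A3), 0.997 (SLC26A7) and 0.433 (SLC9C1).

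SLC genes also lie next to each other. There were 14 pairs of neighbouring SLC genes less than 200 kb apart, 12 of them of one family, and in 8 pairs both genes were at 0. Most of these 8 pairs were SLC22 genes of chromosome 11, and some genes are in several pairs. Of all listed genes with a value, 41.3% were at 0. Pairs were not counted over all listed genes, so the 8 pairs have no background. SLC22A6 and SLC22A8 lay 7856 bp apart, SLC36A3 and SLC36A2 11205 bp and SLC22A11 and SLC22A12 18344 bp, with all 6 genes at 0. A pair of one family with unequal values was SLC25A41 at 2.51 and SLC25A23 at 20.9, which lie 6300 bp apart. SLC25A23 is upstream on the same strand. Distances in this paragraph are by the listed lengths, not by the annotated gene ends.

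CG pairs around the TSS were counted next, since the rule for SLC genes did not use sequence and the density is measured from the TSS on. Promoters rich in CG pairs are typical of genes used in many tissues. To show what the counts stand for, the 250 bases before the TSS are given for 2 of the highest genes, a gene at 0 with none, a gene at 0 with many, and the gene with the fewest among the 3000, all from RefSeq sequences of GRCh38.p14, 5′ to 3′ on the strand of the gene, with each CG pair in capitals. They are SLC4A7 (chr3:27484385-27484634, minus strand), SLC35B3 (chr6:8435546-8435795, minus strand), SLC22A6 (chr11:62984968-62985217, minus strand), SLC9A2 (chr2:102619303-102619552, plus strand) and SLC25A38 (chr3:39383120-39383369, plus strand). The choice was made among SLC genes with a RefSeq sequence within 100 bases of the listed TSS.
SLC4A7: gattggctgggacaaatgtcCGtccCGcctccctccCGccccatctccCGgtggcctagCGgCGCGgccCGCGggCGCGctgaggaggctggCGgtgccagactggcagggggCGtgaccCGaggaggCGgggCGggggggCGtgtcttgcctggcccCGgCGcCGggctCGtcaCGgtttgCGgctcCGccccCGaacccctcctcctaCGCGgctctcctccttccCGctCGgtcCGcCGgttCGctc
SLC35B3: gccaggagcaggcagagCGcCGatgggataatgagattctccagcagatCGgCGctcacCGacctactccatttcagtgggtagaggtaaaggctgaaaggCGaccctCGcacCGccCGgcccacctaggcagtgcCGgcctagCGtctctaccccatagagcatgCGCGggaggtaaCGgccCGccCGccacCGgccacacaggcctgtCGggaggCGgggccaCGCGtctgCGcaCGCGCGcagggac
SLC22A6: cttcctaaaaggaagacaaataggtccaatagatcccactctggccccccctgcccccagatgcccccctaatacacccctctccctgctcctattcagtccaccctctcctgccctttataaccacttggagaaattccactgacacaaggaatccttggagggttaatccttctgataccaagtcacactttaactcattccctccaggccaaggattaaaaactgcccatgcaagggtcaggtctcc
SLC9A2: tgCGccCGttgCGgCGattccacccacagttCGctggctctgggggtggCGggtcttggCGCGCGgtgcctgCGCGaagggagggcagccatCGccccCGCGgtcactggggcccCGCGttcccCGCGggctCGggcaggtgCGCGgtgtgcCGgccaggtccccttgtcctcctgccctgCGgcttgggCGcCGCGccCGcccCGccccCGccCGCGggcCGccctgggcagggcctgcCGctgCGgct
SLC25A38: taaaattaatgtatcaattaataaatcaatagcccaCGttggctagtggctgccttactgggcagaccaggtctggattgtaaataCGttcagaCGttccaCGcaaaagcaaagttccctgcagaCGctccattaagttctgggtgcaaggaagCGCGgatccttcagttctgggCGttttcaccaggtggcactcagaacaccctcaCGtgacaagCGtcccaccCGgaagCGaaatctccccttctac

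These windows held 32, 25, 0, 34 and 12 CG pairs. In 300 bases, from 250 before to 50 after the listed TSS, the 49 SLC genes among the 3000 had a median of 30 CG pairs, the 30 other genes above 0 one of 22.5, and the 50 genes at 0 one of 11. All listed protein-coding genes had medians of 27 among the 3000 and 7 at 0. At least 20 CG pairs were found in 42 of 49 SLC genes among the 3000 (85.7%), in 17 of 30 (56.7%) and in 15 of 50 at 0 (30.0%), beside 37.3% of all listed genes. Listed protein-coding genes had 77.6% among the 3000 and 26.5% at 0. No test was run, and the ranges overlapped, with 1 to 49 pairs among the 3000 and 0 to 41 at 0.

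Exceptions were found on both sides. Fewer than 20 CG pairs were counted in 7 SLC genes among the 3000. SLC2A3, with 8 pairs, had one of the highest densities of all SLC genes, 197, and a TATAAA in the window, the single one of these 49 genes to hold it. SLC22A13, with 1 pair, lies downstream of another gene on the same strand. The end of OXSR1, itself listed at a density of 89.1, is 10328 bp from the TSS of SLC22A13. Whether RNA from OXSR1 adds to the value was not tested. In the other direction, 9 SLC genes at 0 had 30 or more CG pairs, among them SLC9A2 with 41, SLC6A11 with 39 and SLC32A1, SLC34A2 and SLCO2A1 with 38 each.

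An upstream protein-coding gene on the same strand ended within 10 kb of the TSS in 11 of the 30 SLC genes above 0 outside the 3000 (36.7%), in 5 of the 49 among the 3000 (10.2%) and in 7 of the 50 at 0. For listed protein-coding genes the shares were 17.2%, 13.7% and 10.8%. SLC25A31 at 2.25 lies 3663 bp beyond INTU, which had a density of 49.1. SLC17A9, a vesicular nucleotide transporter, at 0.217 lies 4234 bp beyond GID8, at 54.3, and SLC27A4 lies 6455 bp beyond COQ4, at 70.6. These examples have the upstream neighbours with the highest densities among the 11. For most of the 11 the upstream gene is not listed, so it has no density. SLC25A41 lies 2316 bp beyond the annotated end of SLC25A23, at 20.9, and SLC38A3 lies beyond GNAT1, at 0. The part of the neighbours in these values was not tested.

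Short motifs were searched on both strands of the same 300 bases. TATAAA occurred in 1 of 49 SLC genes among the 3000 (2.04%), in 3 of 30 and in 9 of 50 at 0 (18.0%), beside 13.4% of all listed genes. Protein-coding genes had it in 5.48% among the 3000 and 18.2% at 0. GGGCGG, the GC box, was found in 39 of 49 (79.6%), 18 of 30 (60.0%) and 20 of 50 (40.0%), beside 42.6%, and in 75.1% and 37.6% of protein-coding genes among the 3000 and at 0. It contains a CG pair, so both counts overlap. CCAAT was found in 16 of 49 (32.7%), 10 of 30 and 21 of 50 (42.0%), beside 37.6%. TGATGNAA, the core of the amino acid response element, was found in 7 of the 129 SLC genes (5.43%, beside 4.03% of all listed genes), 2 of them among the 3000, SLC7A1 and SLC22A13. TGACNNNGC, the core of the antioxidant response element, was found in 23 (17.8%, beside 13.4%).

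Metal response elements have the cores TGCACNC and TGCGCNC. The former was found in 16 of 129 SLC genes (12.4%, beside 13.1% of listed genes) and the latter, which holds a CG pair, in 40 (31.0%, beside 18.7%). SLC30A1 is known as a target of the zinc-sensing factor that binds these elements, so its window of 250 bases (chr1:211579162-211579411, minus strand) is shown with the match to TGCACNC, on the opposite strand, in capitals.
SLC30A1: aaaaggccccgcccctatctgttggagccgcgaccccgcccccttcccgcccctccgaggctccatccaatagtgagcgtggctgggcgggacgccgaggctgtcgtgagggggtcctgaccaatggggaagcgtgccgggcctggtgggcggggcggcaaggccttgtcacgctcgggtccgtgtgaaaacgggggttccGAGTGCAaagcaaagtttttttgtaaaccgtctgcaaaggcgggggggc

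The match starts at position -49 from the TSS, and a second one in the 300 bases starts at position 24, after it. Such matches describe the letters and say nothing of a bound factor.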

How the data were processed

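The 9 libraries are H2BK120Ub ChIP-seq and input of RPE1 cells, grouped by their titles, and the deposited table holds no value of any of them. Columns with per-sample values that were not used numbered 0. For the list, the authors started from canonical UCSC genes, required a minimum size and spacing, and gave positions on GRCh38.p14. The list still holds genes shorter than the stated minimum of 3 kb. The BrU values are a score that the authors computed with HOMER as read density over the first 3 kb, using STAR alignments of BrU-seq data they had published before, from WT cells without UV. HOMER's annotation tool was run at its defaults for this column, which by the tool's own convention count reads of both strands, whereas stranded counts are stated for the profiles. Their processing notes also name Trim Galore 0.6.5, BWA 0.7.17, SAMtools 1.11 and HOMER 4.8.2.

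Here, values within 1e-06 of 0 were taken as 0. Symbols and gene types came from GENCODE v44, which held 9538 of the 9588 identifiers. Gene positions are 1-based, and the far end was placed by the listed length. Of the listed genes, 87 have no value and none of these is an SLC gene. Windows of 300 bases around the listed TSS were read from hg38, whose main chromosomes have the coordinates of GRCh38.p14, and were identical to RefSeq sequences in 4720 of 4720 genes that share a start. A RefSeq promoter was matched by symbol for 99 of 129 SLC genes. Genes were described by counts and medians, without a test, since there is 1 value per gene. Counting intervals are exact Poisson intervals (95%). The motif search was tested on simulated sequences. A planned comparison of protein sequences was not run, for want of protein sequences. Genes were named by rank of density, length, position near rank 3000, family and substrate group. SLC9A7, SLC22A13 and the other exceptions in CG pairs, the genes downstream of a neighbour and the genes at 0 given as examples were chosen after their values were seen. Some genes that the rule names are not reported here. The members and lists were chosen with earlier results of these data known. Alternatives covered membership, chromosomes, spacing, gene type, the number of genes ranked, the minimum density, the source of length and the promoter start. Python 3.11.15, numpy 2.4.6, pandas 2.3.3, scipy 1.17.1 and matplotlib 3.10.9 were used.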

Additional observations from a re-analysis of the deposited data

How the results depend on the processing

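In all, 8 results were recomputed under alternatives, giving 51 values, 7 of them from leaving out members whose first 3 kb overlap another annotated gene, which was chosen after seeing the data. Of these, 49 stayed within the binomial interval of the result, within 1.5 times of a count or, for CG pairs, within the spread between genes, and 2 moved. With 2500 genes ranked in place of 3000, the share of SLC genes among them was 27.1%, fewer by construction. With 3500 it was 46.5%, more by construction. With zeros included, the median density was 2.25, lower by construction. Without the overlapping windows, 112 SLC genes remained and 35.7% were among the 3000. By the gene span of the annotation, 21 and 9 SLC genes among the 3000 reached 50 and 100 kb, against 18 and 6 by the listed length. No listed symbol named an adaptor or regulator, so the values without these could not change, though they count among the 49. No paired analysis was possible because no result comes from a test and the table holds no library. The depth of the BrU-seq libraries is unknown apart from the steps in the values, so a value of 0 may be a matter of depth.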
